A study of Mus musculus with 6 samples.

Results

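The regions described here are 505 peaks of the DAXX chromatin immunoprecipitation (ChIP-seq) list from DNA methyltransferase triple-knockout (TKO) mouse embryonic stem cells. They were selected on their absence from another list: each lies on chromosome 8 or 11 and shares no base with a peak of the ATRX list from wild-type (WT) J1 cells. They are called own peaks below, and all positions are in build mm9. Chromosome 8 held 196 of them and chromosome 11 held 309, out of 1296 own peaks on all chromosomes and 2046 TKO DAXX peaks in all. The series holds 7165 peaks in 6 lists, with 1 library for each pair of cell line (J1 or TKO) and antibody (ATRX SC-15408, DAXX SC-7152 or rabbit IgG). All cells grew in ES medium with 2i, which adds 1 µM of PD0325901 (a MEK inhibitor) and 3 µM of CHIR99021 (a GSK3 inhibitor). The TKO cells carry homozygous knockouts of the 3 DNA methyltransferases. Whether that line is a single clone, and how many chromosome copies either line carries, is not given in the sources used here.

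DAXX is a histone chaperone for the variant histone H3.3, and ATRX is the chromatin remodeller that works with it. In embryonic stem cells the pair is known for depositing H3.3 at telomeres, at the heterochromatin beside centromeres and at silenced repeats. Mouse chromosomes have their centromere at the end where coordinates begin, so the highest coordinates are the telomere side, called distal below. Cultured mouse embryonic stem cells are known to gain copies of chromosome 8 and, less often, of chromosome 11.

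The TKO DAXX and WT ATRX lists, as labelled, are not independent. They share 750 peaks with the same start and end, and 0 TKO DAXX peaks overlap a WT ATRX peak without being identical to it. The own peaks are therefore what is left of the TKO DAXX list once these identical peaks are removed, and every value below rests on the 2 labels. Library depth is not known from the lists, so a peak that a list lacks was not shown to be unbound. Intervals in brackets are exact (Clopper-Pearson) 95% binomial intervals, and account for the counting of peaks alone. Each group is 1 library, so replicate error is unknown and no difference was tested.

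Chromosomes 8 and 11 had more own peaks for their length than the other chromosomes. Chromosome 11 held 2.6 own peaks per Mb and chromosome 8 held 1.53, where length is the span from the first to the last peak of any list. On the 18 other chromosomes apart from Y the density ran from 0.0734 per Mb on X to 0.614 on chromosome 17, with a median of 0.362. The chromosomes were chosen with this excess known, so the densities are a description. Together the 505 peaks made up 39.0% of all own peaks (36.3 to 41.7).

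Part of this order is common to other lists. WT ATRX peaks were also denser on chromosome 11 (1.13 per Mb) than on any of the 18 others, which reached 0.878, while chromosome 8 stood at 0.874. TKO ATRX peaks had 0.82 per Mb on chromosome 8 and 0.792 on chromosome 11, within the range of 0.116 to 0.938 on the others. WT DAXX peaks stood at 0.211 and 0.438 per Mb on chromosomes 8 and 11, against a highest value of 0.444 on chromosome 13.

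**Figure D1:**
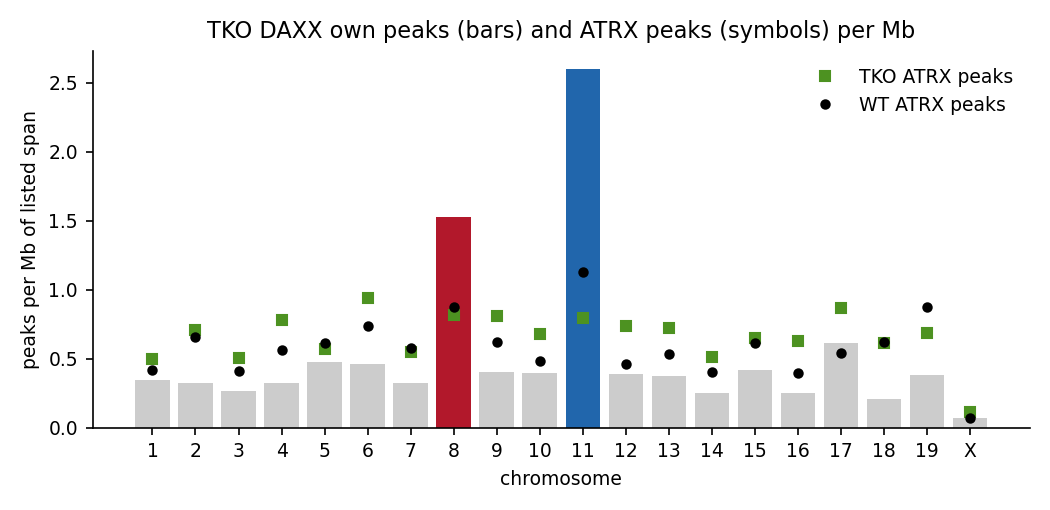
Bars give TKO DAXX own peaks per Mb of listed span for each chromosome (chromosome 8 red, chromosome 11 blue, others grey), and symbols give TKO ATRX (squares) and WT ATRX (circles) peaks per Mb. The bars of chromosomes 8 (1.53) and 11 (2.6) stand above all others, while the squares of these chromosomes lie among the rest.

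The share of TKO DAXX peaks that are own peaks was alike on the 2 chromosomes. It was 77.5% on chromosome 8 (71.8 to 82.5) and 76.9% on chromosome 11 (72.4 to 80.9). Over the whole TKO DAXX list it was 63.3%, and on the other chromosomes apart from Y it was 56.8% (54.2 to 59.5). This is the share that chose the peaks, and nothing is read from it. Seen from the WT ATRX list, the chromosomes parted when each was taken whole. Of its chromosome 11 peaks 69.4% (60.9 to 77.1) recurred in TKO DAXX. The share was 50.9% on chromosome 8 (41.3 to 60.5) and 50.3% elsewhere (47.4 to 53.1). Chromosome 8 was uneven in this. In its bins of 10 Mb from 80 to 130 Mb, 1 of 12, 3 of 9, 5 of 7, 6 of 8 and 16 of 20 recurred.

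Along chromosome 8 the own peaks were concentrated at the distal end. The distal part of the span, beyond its midpoint at 67.2 Mb, held 162 of the 196 (82.7%, 76.6 to 87.7) and the proximal part held 34. The proximal part had 0.531 own peaks per Mb and the distal part 2.53, against 0.282 and 0.402 per Mb in the same parts of the other chromosomes. On those 18 chromosomes the distal share ran from 34% to 81.8%, so chromosome 8 lay just above the highest, chromosome 19 with 22 own peaks. Chromosome 4 came next with 40 of 49 (81.6%). The other lists were less uneven on chromosome 8, with 58% of WT ATRX peaks, 54.3% of TKO ATRX peaks and 61.4% of the identical peaks in the distal part.

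In bins of 10 Mb the steepest rise on chromosome 8 came at its distal end. The first 3 bins held 7, 10 and 6 own peaks. Between 30 and 70 Mb each bin held 2 to 4 own peaks, close to the median of 2 for the 246 bins of the other chromosomes. The bin from 70 to 80 Mb held 6, and 11 of the 14 bins were above that median. From 80 Mb on the bins held 11, 13, 17, 27 and then 87 own peaks, the last between 120 and 130 Mb. The bin of 87 alone held 44.4% of the own peaks of chromosome 8, and the highest bin of any other chromosome except 11 held 19 (chromosome 5, 110 to 120 Mb). The last 10 Mb of the span also held 44.4%. On the 18 other chromosomes that share ran from 4.76% to 50%, with a median of 15.7%, and was highest on X with 12 own peaks. In the 5 bins from 80 to 130 Mb TKO ATRX had 11, 8, 5, 11 and 13 peaks and WT ATRX had 12, 9, 7, 8 and 20. Neither list rose at every step, though both were highest in the last of these bins. The identical peaks did rise at every step, with 1, 3, 5, 6 and 16.

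Within the densest bin the own peaks were spread over most of its length. Of its 10 windows of 1 Mb, 6 held 10 or more own peaks, with 17 at 125 to 126 Mb and 15 at 123 to 124 Mb. The windows at 120 to 121 Mb and 129 to 130 Mb held 1 each. The most own peaks found within 500 kb on chromosome 8 were 12, in chr8:123497446-123991120, with scores from 70.28 to 139.77. The same stretch held 2 WT ATRX peaks and no TKO IgG peak. One TKO ATRX peak reaches past its end and is described below.

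Chromosome 11 was different in shape, with many own peaks along most of its length. Its 13 bins of 10 Mb held between 5 and 62 own peaks with a median of 23, and all 13 were above the median bin of the other chromosomes. In 8 of them there were more own peaks than in the highest bin of any chromosome other than 8 and 11. The lowest bins held 5 at 10 to 20 Mb and 9 at 40 to 50 Mb, whereas 13 of the 246 bins of the other chromosomes held 10 or more. The distal part, beyond the midpoint at 62.4 Mb, held 190 of 309 own peaks (61.5%, 55.8 to 66.9), beside 65.6% of the identical peaks, 59% of WT ATRX peaks and 69.1% of TKO ATRX peaks on the same chromosome.

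The densest bin of chromosome 11 was also close to its distal end. Between 110 and 120 Mb it held 62 own peaks, 20.1% of those on the chromosome. At the centromere side the first bin held 24, and the bin after it held 5. The most own peaks found within 500 kb were 9, as in chr11:118862097-119361062, with scores from 71.64 to 112.15. Close gatherings were not limited to these chromosomes, since the first megabases of chromosome 9 held 16 own peaks in 34.7 kb.

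**Figure D2:**
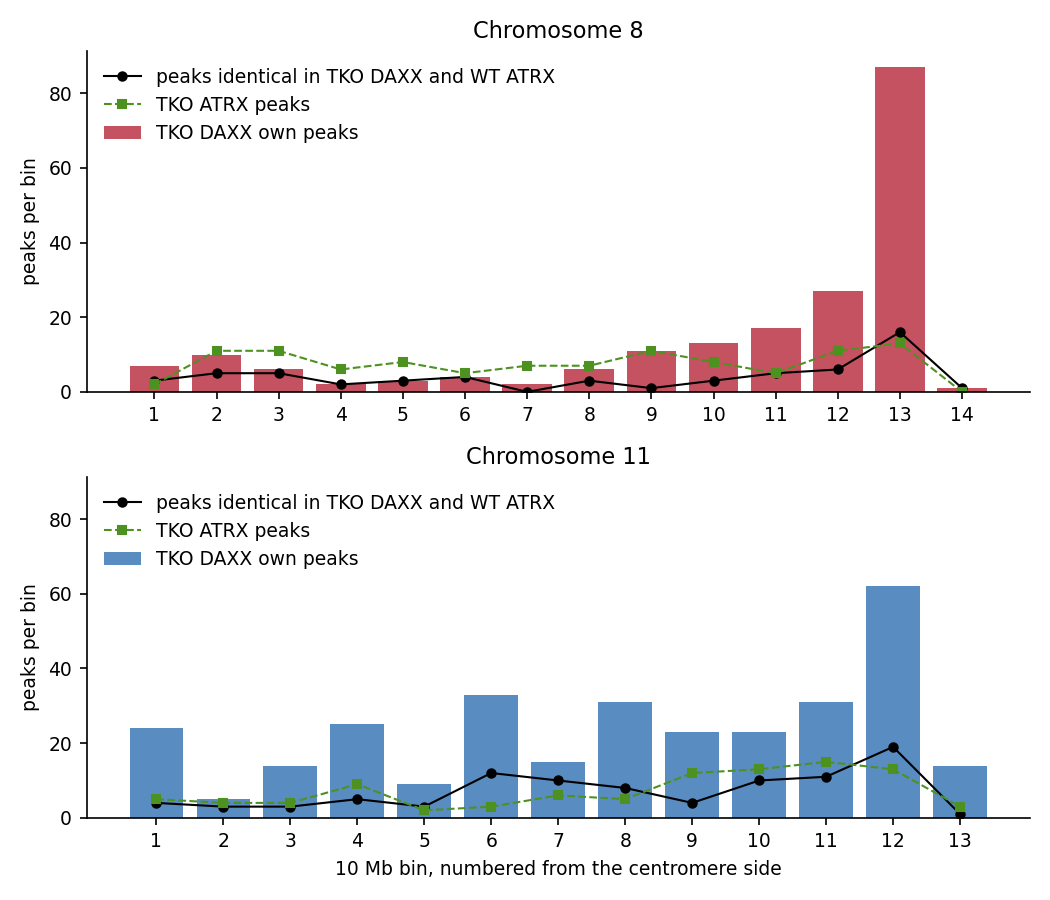
Bars give TKO DAXX own peaks in each 10 Mb bin of chromosome 8 (top) and chromosome 11 (bottom), numbered from the centromere side; circles give peaks identical in TKO DAXX and WT ATRX, and squares give TKO ATRX peaks. On chromosome 8 the bars climb over the last bins to 87 in bin 13, whereas on chromosome 11 they range from 5 to 62 along its length.

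Set against the identical peaks, the excess on chromosome 8 lay mostly in its distal part. There were 1.55 own peaks for each identical peak in its proximal part and 4.63 in its distal part. Chromosome 11 had 3.72 and 3.11, and the other chromosomes pooled had 1.25 and 1.36. By this ratio the proximal part of chromosome 8 lay near the other chromosomes, and both parts of chromosome 11 lay above them. The ratio is another form of the share that chose the peaks, so it is a description. By density the proximal part of chromosome 8 was above the others, at 0.531 own peaks per Mb against 0.282 in their proximal parts.

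Own peaks on these chromosomes were close to each other. Their median gap to the nearest own peak was 70.9 kb, at 79.3 kb on chromosome 8 and 65.5 kb on chromosome 11, against 423 kb on the other chromosomes. Of the 505, 299 (59.2%, 54.8 to 63.5) had another own peak within 100 kb, compared with 19.3% (16.6 to 22.3) elsewhere. Close spacing follows from the higher density. At a distance of 1 kb the order was the opposite. Elsewhere 35 of 791 lay within 1 kb of another own peak, in a set that includes gatherings such as the 16 own peaks in 34.7 kb on chromosome 9. On chromosomes 8 and 11 it was 12 of 505.

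Of these 12, 6 made up one stretch of distal chromosome 8, chr8:125949701-125957175, which is 7475 bp long. Its peaks scored, in order, 129.92, 103.51, 222.36, 187.76, 255.42 and 229.63, and the gaps between them were 22 to 875 bp. They include 4 of the 5 highest-scoring own peaks of chromosome 8, and the first 2 of the 6 were added to the description after their values were seen. At 22 bp past the last of them lies a TKO DAXX peak with an identical copy in WT ATRX, chr8:125957198-125958443, with a score of 296.53 in TKO DAXX and 80.38 in WT ATRX. The 6 own peaks thus adjoin a site that both lists hold. The nearest peak of another list was 177 kb away for TKO IgG, 692 kb for TKO ATRX and 861 kb for WT DAXX.

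**Figure D3:**
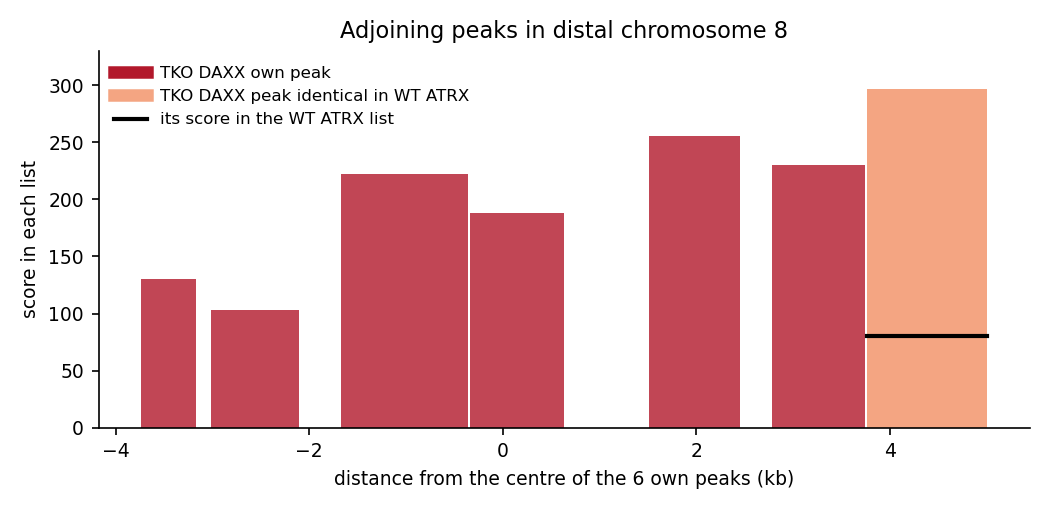
Each block is 1 TKO DAXX peak, placed by its distance in kb from the centre of the 6 own peaks, with its height giving the score; the pale block is the adjoining identical peak and the black line its score in the WT ATRX list. The 6 own peaks reach scores of 103.51 to 255.42, and the pale block reaches 296.53 against 80.38 for the line.

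This was the nearest approach of any of the 505 peaks to the boundary of the selection. The next gap to a WT ATRX peak was 0.794 kb, also on chromosome 8, and the smallest on chromosome 11 was 3.57 kb. Only 19 of the 505 lay within 10 kb of a WT ATRX peak, and the median gap was 206 kb. The selection left out every peak that touches a WT ATRX peak, and no comparison gap was computed, so these distances are a description.

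The score of a peak is the caller's value in the authors' list, read here as 10 times the negative log10 of a p-value. It serves to rank peaks inside that list, and is subtracted between lists only for the identical peaks below. Most own peaks sat near the lower end of the list, whose lowest score is 70.01. The 505 scored from 70.09 to 255.42, with a median of 82.29 and quartiles of 75.78 and 92.09, and 208 of them (41.2%) scored under 80. On the other chromosomes the own peaks had a median of 79.57, and 51.5% scored under 80. The identical peaks of chromosomes 8 and 11 stood higher, with a median of 90.69. Scores are part of the contrast that chose the peaks, so these values are a description.

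Own peaks on chromosome 8 ranked a little higher than those on chromosome 11, with medians of 84.21 and 81.35. Within chromosome 8 the 2 parts were alike, at 84.22 proximally and 84.21 distally, so the dense part did not hold weaker peaks. Its densest bin had a median of 86.67, and 24.1% of the peaks there reached 100, against 12.8% on the rest of the chromosome. Of the 21 peaks behind the 24.1%, 6 are the adjoining peaks of the stretch of 7475 bp described above. The densest bin of chromosome 11 showed 21% against 13.4%. The 2 lowest-scoring of the 505 were both on chromosome 11, chr11:116761485-116761848 with 70.09 and chr11:3969196-3969540 with 70.2.

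**Figure D4:**
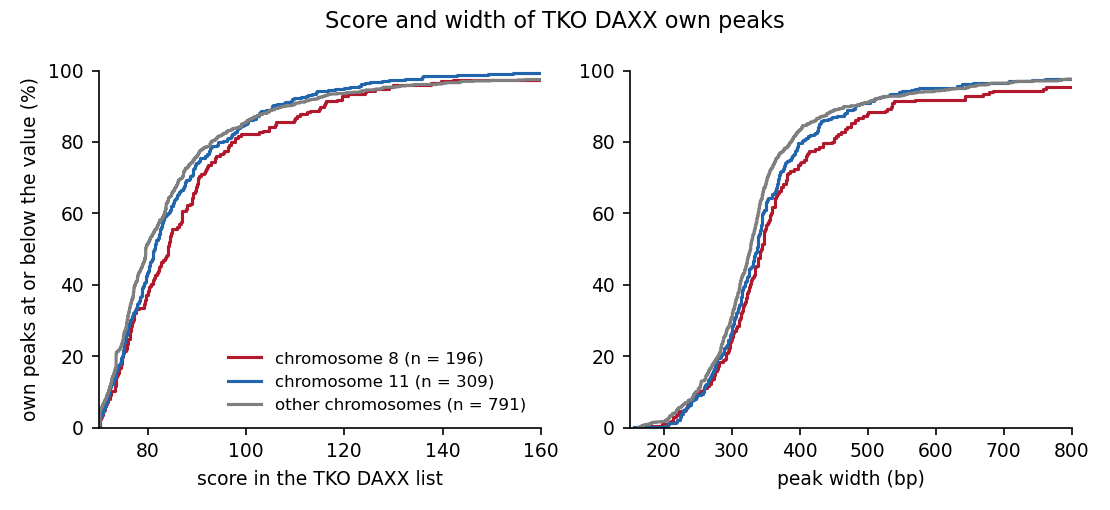
Lines give the percentage of own peaks at or below each score (left) and each width in bp (right) for chromosome 8, chromosome 11 and the other chromosomes. The 3 lines run close together, with medians of 84.21, 81.35 and 79.57 for the score and 343.5, 337 and 328 bp for the width.

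Widths were those of narrow peaks. The 505 had a median of 339 bp with quartiles of 298 and 392, against 328 bp on the other chromosomes and 332 bp for the identical peaks of chromosomes 8 and 11. Only 5 were 1 kb or wider. The widest was chr8:56205306-56208060 at 2755 bp with a score of 114.77, followed by chr11:3049465-3051823 at 2359 bp with a score of 124.22. The second of these is the first position listed on chromosome 11 in any of the 6 lists, at the centromere side. Near the widest peak lies chr8:56202001-56203065, which is 1065 bp wide and scored 110.34.

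Only a few of the 10 highest own peaks were on these chromosomes. They held 2 of the 10 highest own peaks of the list (20%), both in the stretch described above. Further down they held 16 of the highest 50 (32%), 40 of the highest 100 (40%) and 219 of the highest 500 (43.8%). Of all own peaks they held 39.0%. Outside that stretch the leading peak of chromosome 8 was chr8:70763701-70763922, only 222 bp wide, with a score of 197.56. It was followed by chr8:119101860-119102537 (142.1), chr8:123791258-123791785 (139.77) and chr8:125324053-125324538 (137.67). Of these 4, the one at 119 Mb was the only one with a TKO ATRX peak. All but the first of the 4 lie beyond 110 Mb.

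On chromosome 11 the highest own peak was chr11:116606776-116608128, 1353 bp wide, with a score of 229.33. Next were chr11:52988782-52989590 (186.61), chr11:119975581-119976341 (154.3) and chr11:33514235-33514602 (149.26). The peaks scoring 229.33 and 154.3 had a TKO ATRX peak, and the others were in no other list. The next 4 were chr11:31822382-31822810 (142.92), chr11:60495865-60496691 (135.99), chr11:106432893-106433743 (135.82) and chr11:121373137-121373532 (132.41). None of these overlapped a peak of another list, and unlike on chromosome 8 the 8 highest were scattered over both sides of the midpoint.

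Overlap with TKO ATRX shows where both members of the complex were called in the same cells, and the selection did not use it. A TKO ATRX peak overlapped 16 of the 505 own peaks (3.17%, 1.82 to 5.09), 9 on chromosome 8 and 7 on chromosome 11. Over all TKO DAXX peaks the share was 5.47%, and among own peaks of other chromosomes it was 6.32% (4.73 to 8.25). The share of the 505 was thus below both, though its interval overlaps that of the other own peaks, and the difference was not tested. Counted as a share of the ATRX list, 8.04% of the TKO ATRX peaks on chromosomes 8 and 11 (4.67 to 12.7) met an own peak, against 3.03% elsewhere (2.21 to 4.05). The share was thus lower counted over DAXX peaks and higher counted over ATRX peaks, as the step in density was larger for own peaks (2.05 against 0.342 per Mb) than for TKO ATRX peaks (0.806 against 0.628).

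Overlap was more frequent among higher-scoring peaks. Of the 81 own peaks scoring 100 or more, 10 met a TKO ATRX peak (12.3%, 6.08 to 21.5), against 2 of the 208 under 80 (0.962%, 0.117 to 3.43). The other chromosomes showed the same rise, from 3.19% (1.71 to 5.40) to 19.3% (12.5 to 27.7). In each of the 3 score ranges compared, under 80, 80 to 100 and above, the share on chromosomes 8 and 11 was the lower. The 16 were also wider than the other 489, with medians of 498.5 and 338 bp, and scored higher, with medians of 106.20 and 81.81.

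The 16 sites were shared over most of their length, since in every one the ATRX peak covered at least 50% of the own peak. Their ATRX scores ran from 73.13 to 204.43 with a median of 97.13, against 79.53 for all TKO ATRX peaks of the 2 chromosomes. The highest ATRX score was at chr8:123990478-123991120, an own peak of 643 bp that scored 116.29 for DAXX and 204.43 for ATRX. It lies inside an ATRX peak of 1100 bp and ends the stretch of 12 own peaks described above. The others among the 5 highest by DAXX score on that chromosome were chr8:119101860-119102537 (142.1 for DAXX and 73.13 for ATRX), chr8:24196269-24197114 (119.54 and 104.61) and chr8:80431585-80431781 (104.72 and 80.4). The last of them was chr8:123345909-123346355 (97.77 and 83.92). They lie on both sides of the midpoint of the chromosome.

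The 3 lowest DAXX scores among the shared sites of chromosome 8 were at chr8:28183846-28184837 (89.08 for DAXX and 130.99 for ATRX), chr8:12634843-12635335 (84.41 and 158.93) and chr8:128216964-128217284 (77.16 and 125.15). The scales of the 2 lists are separate, so these pairs show no balance between the factors.

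On chromosome 11, 5 of the 7 sites fell in the bin between 110 and 120 Mb. They were the leading own peak of the chromosome (229.33 for DAXX and 89.65 for ATRX), chr11:116586310-116586813 (107.68 and 75.87), chr11:117168485-117169367 (118.07 and 85.26), chr11:117964245-117964604 (101.51 and 161.89) and chr11:119975581-119976341 (154.3 and 151.48). The first 2 of these lie within 100 kb of each other. The other 2 sites of the chromosome were chr11:32479586-32480013 (114.51 and 80.64) and chr11:70224129-70224403 (77.76 and 80.75). With these overlaps included, 29 of the 505 (5.74%) lay within 10 kb of a TKO ATRX peak, against 12.4% of the other own peaks.

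No own peak of chromosome 8 or 11 overlapped a WT DAXX peak, and on the other chromosomes 1 of 791 did. Over the whole TKO DAXX list the share was only 0.489%, and 9 of the 10 peaks behind it are identical peaks, which the selection removed. The IgG precipitates, the background of non-specific antibody, met 3 of the 505, all in the TKO list and none in the WT list. Over the whole TKO DAXX list 0.293% of peaks met an IgG peak of either line. Both chromosome 8 cases overlap 1 broad TKO IgG peak from 56203824 to 56209072 with 1526 tags and a 6.55-fold enrichment. They are the widest own peak, chr8:56205306-56208060, and chr8:56208619-56209079 with a score of 75.85. The remaining one was chr11:60482838-60483401, scoring 85.39, at the edge of a TKO IgG peak with 122 tags and an 18.74-fold enrichment. The control used in the authors' calls is not given, so these low counts do not show that the other 502 are free of background.

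Because cultured embryonic stem cells can gain copies of these chromosomes, 3 measures taken outside the 505 peaks are given beside their density. The first is the score of the identical peaks. On chromosome 8, 34 of 57 scored higher in TKO DAXX than in WT ATRX (59.6%, 45.8 to 72.4), with a median difference, TKO DAXX minus WT ATRX, of 6.40. On chromosome 11 it was 67 of 93 (72%, 61.8 to 80.9) with a median difference of 8.31. Elsewhere it was 247 of 600 (41.2%, 37.2 to 45.2) with a median of 0. The rest were not all lower: elsewhere 261 scored lower and 92 had equal scores in both lists. On chromosome 8, 16 were lower and 7 equal, and on chromosome 11, 20 were lower and 6 equal. On both chromosomes the identical peaks thus scored higher in TKO DAXX more often than on the other chromosomes pooled. Medians on the 18 other chromosomes ran from -5.46 on chromosome 17 to 20.31 on chromosome 9, where 11 of the 39 identical peaks lie in the first 5 Mb. Without the first 5 Mb of each chromosome the median fell to 1.02 on chromosome 9, and the highest of the 18 was 6.67 on chromosome 16, above the 5.63 of chromosome 8 and below the 8.23 of chromosome 11. The share of 72% on chromosome 11 was above all 18, which reached 64.1%.

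Along chromosome 8 the median difference was 5.63 over the 22 identical peaks of its proximal part and 6.99 over the 35 of its distal part. In bins of 10 Mb the medians were 6.61, 13.69 and 10.50 up to 30 Mb. They were between -3.13 and 0.01 from 30 to 80 Mb, with no identical peak between 60 and 70 Mb. From 80 to 130 Mb they were 73.96, 23.45, 0.00, 20.03 and 14.02, where the value of 73.96 comes from 1 identical peak. The bins up to 120 Mb hold at most 6 identical peaks each, and no relation to the density was tested. On chromosome 11 the medians were 8.23 in the proximal and 8.87 in the distal part. A score moves with the depth and control behind its own call, and these come from the 2 lists that chose the own peaks, so they are no independent measure.

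The second measure is the IgG signal, which uses neither factor. Over IgG peaks common to both lines, the tags of TKO relative to WT had a median ratio of 2.17 for the 9 peaks on chromosome 8 (range 1.23 to 2.32), 1.33 for the 14 on chromosome 11 (0.791 to 1.94) and 1.67 for the 229 elsewhere. The 9 other chromosomes with at least 9 such peaks had medians of 1.37 to 1.91. By this median chromosome 8 was above them and chromosome 11 below them, though chromosome 18, with only 3 such peaks, had 4.53. By the ratio of summed tags chromosome 8 stood at 1.74, chromosome 11 at 1.21 and the others pooled at 1.8. Chromosome 17 had 2.61, but there a TKO peak was counted for each WT peak it met, unlike in the pooled sum. Chromosome 8 was thus above the pooled others by the median and just below them by the sums. Peaks were called separately in each line and were longer in TKO: the common peaks of chromosome 8 covered 3691 bp in WT and 6207 bp in TKO, with 193 and 200 tags per kb. On chromosome 11 they covered 9436 and 12136 bp, with 105 and 99 tags per kb, and elsewhere the tags per kb were 95 and 116. Tags per kb fall as a peak is called longer, so these values do not show whether a chromosome was raised in TKO. The common IgG peaks of chromosome 8 all lie between 15.5 and 72.1 Mb, so they give no value for the region where the own peaks are dense. Those of chromosome 11 lie between 60.4 and 87.3 Mb, outside its densest bin. On each of the 2 chromosomes several lie close together, so the medians rest on few places and do not cover a chromosome.

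**Figure D5:**
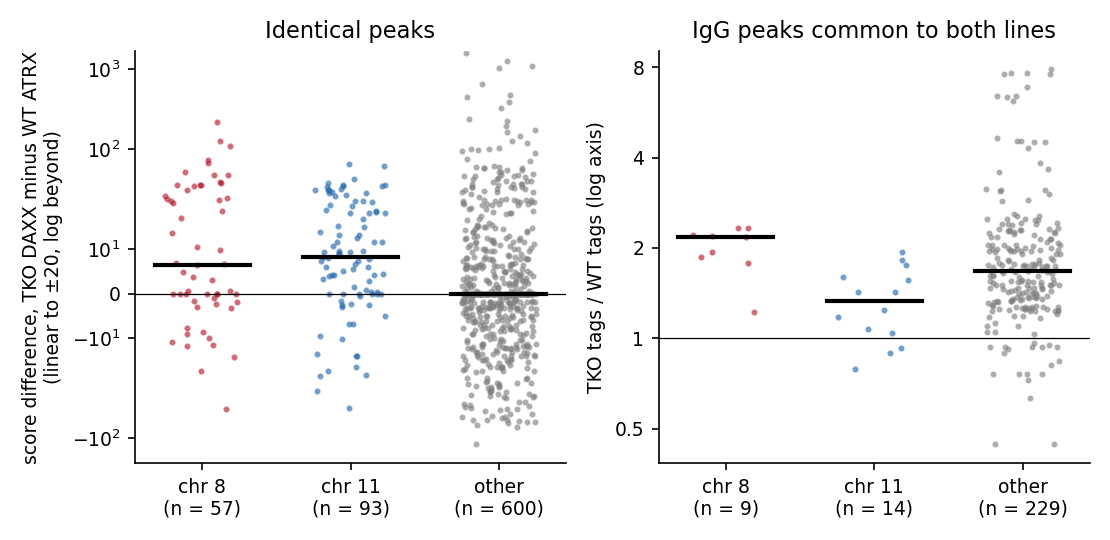
Each point is a peak that is not among the 505 and each thick line is a median: on the left, the score of an identical peak in TKO DAXX minus that in WT ATRX; on the right, the ratio of TKO to WT tags in an IgG peak common to both lines. Identical peaks have medians of 6.40 on chromosome 8, 8.31 on chromosome 11 and 0 elsewhere, and the IgG ratios have medians of 2.17, 1.33 and 1.67.

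The third measure is the TKO ATRX list, from cells of the same line. Its density was 0.806 peaks per Mb on chromosomes 8 and 11 together and 0.628 on the others, a smaller step than that of the own peaks. In the distal part of chromosome 8 it had 0.89 peaks per Mb against 0.75 in the proximal part, while own peaks went from 0.531 to 2.53. Whether extra copies of these chromosomes in the cells behind the TKO DAXX list, or binding of DAXX, underlie the excess of own peaks was not tested, since neither reads nor copy numbers were analysed here.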

How the data were processed

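ChIP-seq peak lists of 6 libraries were used, grouped by sample title, with 1 library per group. The tools Bowtie2 and Picard and the build mm9 appear per the submitters' processing notes; their roles and versions are not stated there. The ATRX and DAXX lists deposited by the authors carry MACS peak names and a score per peak, whose scale was inferred from the headers of the IgG tables. The IgG tables give tag counts, lengths and a fold enrichment per peak, per the file headers. The settings and control of each call are likewise not stated.

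BED starts were changed to count from 1. Overlap meant at least 1 bp (Python 3.11.15, numpy 2.4.6, pandas 2.3.3); counts differed from those of bedtools 2.31.1 in 0 of 30 ordered list pairs, and the code was tested on simulated data. Intervals came from scipy 1.17.1. A peak was placed in a bin, or on a side of the middle of its chromosome's listed span, by its own midpoint. Each TKO IgG peak was counted once in sums of tags.

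The 505 peaks and the comparisons were chosen with earlier results of these data known. Regions named were, per chromosome, the 8 highest-scoring, the 3 widest, the 5 highest and 3 lowest that overlap TKO ATRX (all if 8 or fewer), the densest 10 Mb bin and the most own peaks within 500 kb. Added were all that overlap WT DAXX or IgG and the 2 lowest-scoring. Gene names and sequences in mm9 were not used here. Alternatives were stricter scores, other overlap and neighbour distances, merging, and removal of IgG-overlapping peaks.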

Additional observations from a re-analysis of the deposited data

How the results depend on the processing

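Of 38 recomputed values of 11 results, 27 stayed within the interval of the reported value (a count within 1.5 times), 11 moved and 0 reversed. At a score of 80 or more there were 297 own peaks on chromosomes 8 and 11, making up 43.6% of all own peaks, with a median width of 352 bp; 46.8% had another within 100 kb, and the overlap of own peaks on other chromosomes with TKO ATRX was 9.64%. At a score of 100 or more there were 81 own peaks, and the overlap with TKO ATRX was 12.3% on chromosomes 8 and 11 and 19.3% elsewhere. With neighbours sought within 50 kb the share was 39.4%. These cuts remove peaks or narrow the window by construction. The share on chromosomes 8 and 11 stayed between 36.6% and 43.6% in all 5 alternatives run for it. Leaving out the 10 Mb bin with most own peaks on every chromosome was chosen after seeing the data, as was leaving out the first 5 Mb for single other chromosomes. The former lowered the distal share to 68.8% on chromosome 8 and 51.8% on chromosome 11, because those bins are distal. No paired analysis was possible because each group has 1 library. Leaving out a replicate was likewise not possible. Depth is unknown, and 41.2% of the own peaks scored under 80, so membership near the cut depends on the authors' threshold.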
